A study of Mus musculus with 12 samples.

Results

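A set of 10 genes used to mark haematopoietic stem cells was followed across the study's arrays: the transcription factors Mecom, Hlf, Mycn, Gata3 and Gfi1b, and the surface proteins Procr, Slamf1, Tek, Robo4 and Esam. They were taken as a list of symbols, and all 10 had a probe, out of 20284 genes that could be named and 13712 that were tested. Total RNA came from 2 purified bone marrow populations, LSK cells (the Sca-1+ and c-Kit+ fraction of marrow without lineage markers, which holds stem cells and multipotent progenitors) and granulocyte-macrophage progenitors (GMPs), and was hybridised to 12 one-colour Agilent arrays. Every marrow was that of a recipient mouse repopulated by fetal liver cells, and the strain given is C57BL/6. Each population was sampled once from marrow of wild-type, Tet2KD/KD (a hypomorphic Tet2 allele), Ezh2-/- and Tet2KD/KDEzh2-/- (double mutant) origin, and from double mutant mice with a myelodysplastic/myeloproliferative neoplasm (MDS/MPN) or with refractory anaemia with excess of blasts (RAEB). The driver used to delete Ezh2, the age of the mice and the number of animals behind each RNA are not given in the sources used here. With 1 array a condition, no value has a replicate of its own condition. P-values come from limma fits in which arrays of other genotypes stand in as replicates, and they measure the spread between these arrays.

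Stem cells keep themselves quiescent and multipotent through a small set of transcription factors, and are sorted by surface proteins that are lost as progenitors commit to a lineage. Mecom (the Evi1 locus) and Hlf are needed to maintain stem cells, Mycn is expressed in stem and multipotent cells and overlaps with Myc in function, Gata3 acts in T cells and also in stem cells, and Gfi1b is a repressor with roles in stem cells, platelets and red cells. Procr is the endothelial protein C receptor, Slamf1 is CD150, Tek is the Tie2 receptor for angiopoietins, and Robo4 and Esam are adhesion and guidance proteins that stem cells share with blood vessel lining.

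Levels are log2 processed signals relative to the 75th percentile of the array's gene spots, so 0 is the signal of a fairly bright gene; they can be compared between arrays for 1 gene and not between genes. That percentile lay between 169 and 389 signal units, 45.6% to 52.3% of gene spots were well above background, and no gene spot was saturated. The labels were checked on marker genes. Ly6a (Sca-1), Kit, Cd34 and Flt3 were well above background on all 6 LSK arrays but also on all 6 GMP arrays, so their presence separates nothing. All 4 were called lower in GMPs, as were 18.9% of all genes tested. Ly6a still overlapped, at 4.64 on the MDS/MPN GMP array and 3.94 on the wild-type LSK array. Of the GMP markers, 10 of 11, such as Mpo and Elane, were higher in GMPs. The Tet2 probe was lower on the Tet2KD/KD arrays by 1.92 (SE 0.27, limma adjusted p = 0.381), while the Ezh2 probe differed by 0.01 (SE 0.12, adjusted p = 0.995). Where the Ezh2 probe lies relative to the deletion is not given in the sources used here, so it checks nothing. The 8 arrays without disease shared slide 1, both diseased LSK arrays slide 2 and both diseased GMP arrays slide 3, so slide and disease cannot be told apart.

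Mecom and Hlf were the 2 genes called lower in diseased LSK cells, and the bases before their transcription starts are shown first, with those of Robo4 and Mycn, the 2 genes that varied least in LSK cells. Each run is the 250 bases upstream of a start in RefSeq's GRCm38.p6 annotation, 5′ to 3′. Capitals mark GATAA (the core of a GATA factor motif) or CAGATG (an E-box), on either strand, so that TTATC and CATCTG are the same motifs read from the other strand. Mecom has 2 starts in that table, the first at chr3:30509760-30510009, minus strand, and the second at chr3:30013205-30013454, minus strand. The Hlf window is chr11:90390918-90391167, minus strand, that of Robo4 is chr9:37401722-37401971, plus strand, and that of Mycn is chr12:12941837-12942086, minus strand.
Mecom, first start: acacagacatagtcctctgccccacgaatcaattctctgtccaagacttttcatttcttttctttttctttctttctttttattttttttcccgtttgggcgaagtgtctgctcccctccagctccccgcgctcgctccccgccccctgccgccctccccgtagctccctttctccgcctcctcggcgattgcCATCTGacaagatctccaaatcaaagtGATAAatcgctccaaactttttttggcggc
Mecom, second start: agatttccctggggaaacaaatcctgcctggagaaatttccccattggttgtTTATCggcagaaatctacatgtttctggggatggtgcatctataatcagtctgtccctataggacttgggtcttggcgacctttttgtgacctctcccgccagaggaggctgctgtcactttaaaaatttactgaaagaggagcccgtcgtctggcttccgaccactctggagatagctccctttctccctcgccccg
Hlf: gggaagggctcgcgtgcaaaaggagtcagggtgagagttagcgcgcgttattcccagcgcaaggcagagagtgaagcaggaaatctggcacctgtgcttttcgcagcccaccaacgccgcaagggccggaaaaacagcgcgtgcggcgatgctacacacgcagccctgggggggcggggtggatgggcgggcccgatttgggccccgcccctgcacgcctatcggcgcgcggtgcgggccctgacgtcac
Robo4: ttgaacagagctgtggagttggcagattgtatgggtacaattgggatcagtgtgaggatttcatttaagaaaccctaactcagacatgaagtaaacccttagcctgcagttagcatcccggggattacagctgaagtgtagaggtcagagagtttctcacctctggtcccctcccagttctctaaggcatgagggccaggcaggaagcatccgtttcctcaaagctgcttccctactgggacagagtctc
Mycn: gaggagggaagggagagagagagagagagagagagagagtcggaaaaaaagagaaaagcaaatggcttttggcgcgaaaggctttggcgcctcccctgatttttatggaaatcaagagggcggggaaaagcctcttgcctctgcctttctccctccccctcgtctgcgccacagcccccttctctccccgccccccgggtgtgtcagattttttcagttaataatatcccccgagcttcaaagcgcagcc
The Hlf window held 26 CpG pairs and the Robo4 window 2, against a median of 6 over all 32851 promoter windows of this length. Gfi1b (chr2:28621983-28622232, minus strand) and Slamf1 (chr1:171766882-171767131, plus strand) are shown because theirs are the other windows that hold GATAA.
Gfi1b: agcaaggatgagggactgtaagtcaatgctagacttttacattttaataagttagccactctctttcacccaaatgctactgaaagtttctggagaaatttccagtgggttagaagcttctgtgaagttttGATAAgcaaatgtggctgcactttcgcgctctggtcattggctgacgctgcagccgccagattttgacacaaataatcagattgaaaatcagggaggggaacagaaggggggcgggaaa
Slamf1: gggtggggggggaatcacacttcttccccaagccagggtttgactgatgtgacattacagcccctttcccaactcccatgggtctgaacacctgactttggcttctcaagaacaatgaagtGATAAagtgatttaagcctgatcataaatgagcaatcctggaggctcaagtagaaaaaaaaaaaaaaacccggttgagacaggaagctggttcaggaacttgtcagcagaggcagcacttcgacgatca
Sequences were found for 9 of the 10 genes, in 10 windows, and the exception was Esam. GATAA was in 4 of the 10 windows and in 22.6% of all promoter windows. CAGATG was in 1 of 10, against 14.4% of all, and neither GGAAGT (ETS, in 19.7% of all) nor TGTGGT (RUNX, in 14.0% of all) was in any of the 10. These are matches of letters, each motif searched on both strands, and say nothing about binding.

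GMPs were first set against LSK cells, to see how far genes of stem cells are lost in a committed progenitor, and all 10 genes were lower in GMPs. All 10 were well above background on all 6 LSK arrays. Procr, Hlf and Gfi1b were well above it on all 6 GMP arrays as well, Robo4 and Esam on 1 GMP array, and Slamf1, Tek, Mycn and Gata3 on none. Of 2 Mecom probes, the brighter one, which stands for the gene here, was above background on no GMP array and the other on 1. Over the 6 conditions, limma with a term for condition called 10 of 10 lower, at adjusted p from 4.6888e-06 to 0.0024939, where 18.9% of all genes tested were called lower. All but Procr, Hlf and Gfi1b were tested on account of their LSK arrays, where they are high. On the GMP side their SEs and p-values rest wholly or mostly on background signal and do not measure the spread of expression. That includes the smallest p-value, that of Mycn. The median difference of the 10 was -4.21, or -4.15 with the 5 genes whose probe was at background on every GMP array set to the bounds given with each, and that of all genes was 0.16.

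**Figure D1:**
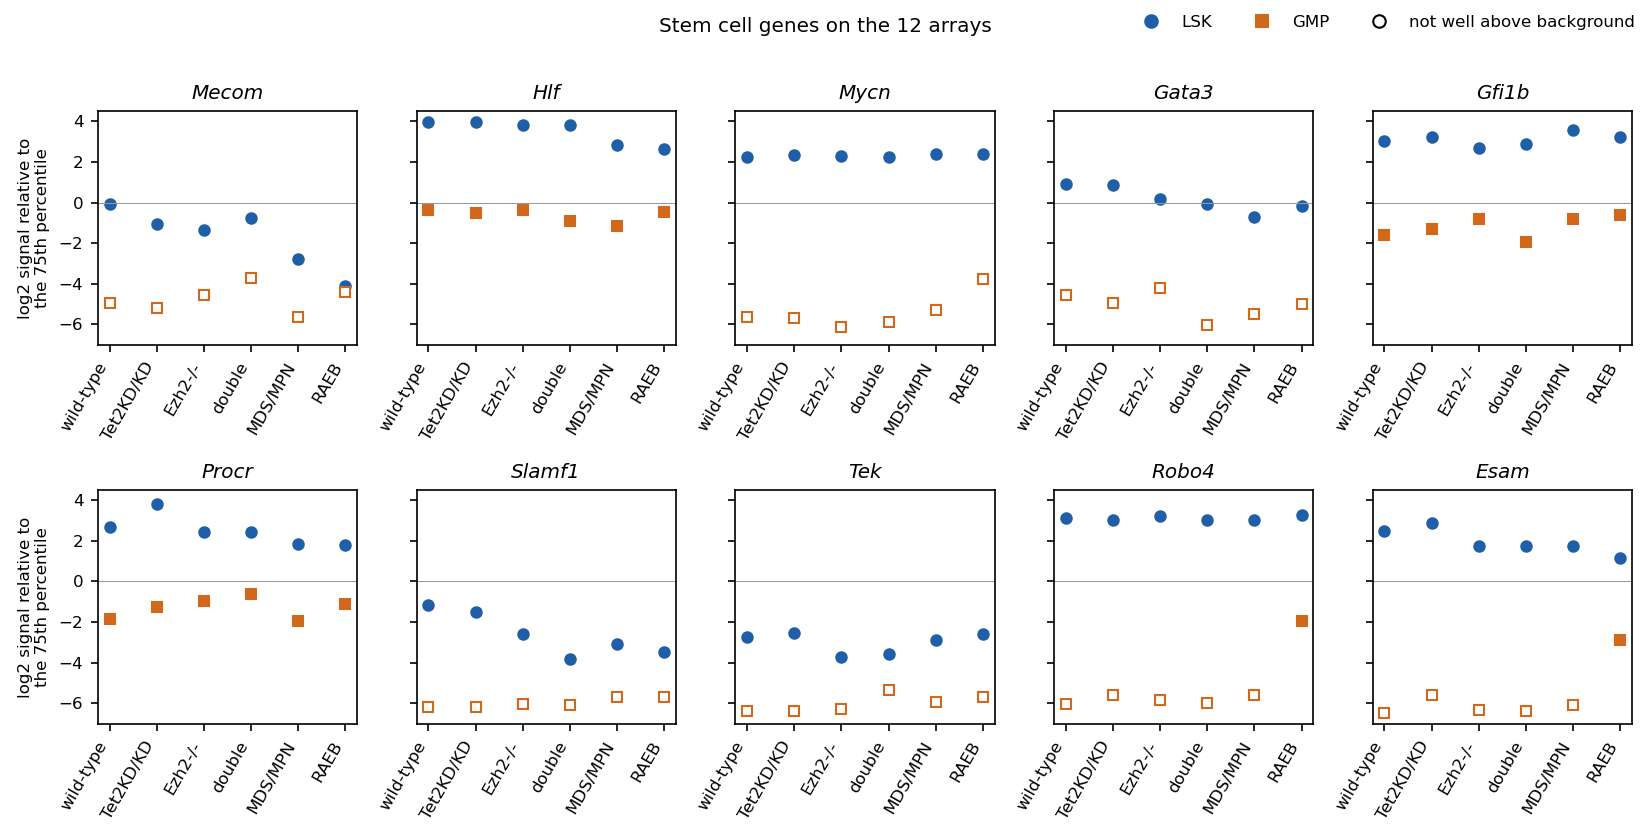
Level of each of the 10 genes on each array (log2 signal relative to the array's 75th percentile), with LSK arrays as circles and GMP arrays as squares over the 6 conditions; open symbols are spots not well above background, and each point is 1 array. GMP points lie below LSK points for 9 genes, the Mecom panel (brighter probe) overlaps through the RAEB and double mutant arrays, and the RAEB GMP array stands high for Robo4 (-1.97) and Esam (-2.88).

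Mycn was well above background in LSK cells and at background in GMPs. Its LSK level lay between 2.23 and 2.40 with a median of 2.31, and its GMP level between -6.12 and -3.77 with a median of -5.66. No GMP array measured it above background, so the fitted value, by which it fell by 7.71 (SE 0.28, adjusted p = 4.6888e-06), is only bounded, as at least 79.6-fold lower. Such a bound sets the mean LSK level against the mean of the dimmest signals that the GMP arrays still called well above background.

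Gata3 ranged from -0.72 to 0.91 in LSK cells (median 0.03) and from -6.04 to -4.23 in GMPs (median -4.95), again at background. The fall was at least 17.9-fold, with a fitted difference of -5.19 (SE 0.23, adjusted p = 7.2448e-06).

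Hlf and Gfi1b stayed measurable in GMPs. Hlf was at 2.62 to 3.97 in LSK cells (median 3.81) and at -1.14 to -0.35 in GMPs (median -0.52), and fell by 4.13 on the log2 scale (SE 0.21, adjusted p = 9.9869e-06), or 17.5-fold. Gfi1b was at 2.67 to 3.59 (median 3.12) against -1.96 to -0.61 (median -1.06), and fell by 4.29 (SE 0.20, adjusted p = 7.9843e-06), or 19.5-fold. Neither gene's groups overlapped.

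Mecom was the only gene of the 10 whose 2 populations overlapped, and only by single probes. The brighter probe's LSK levels ran from -4.12 on the RAEB array to -0.05 on the wild-type array (median -1.19), and its GMP levels from -5.62 to -3.72 (median -4.75), all at background. For this probe the fitted difference was -3.05 (SE 0.52, adjusted p = 0.0025) and the bound at least 4.76-fold. The other probe, well above background on 1 GMP array, was at -4.11 to -1.89 in LSK cells and at -6.20 to -3.94 in GMPs, with a difference of -2.35. The brighter probe differed by -4.90 within wild-type mice and by -0.30 within RAEB mice.

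Of the surface proteins, Robo4 and Esam had the largest fitted differences, which do not rank the genes, since most GMP values were at background. Robo4 was at 3.00 to 3.28 in LSK cells (median 3.07) and at -6.04 to -1.97 in GMPs (median -5.73), a difference of -8.29 (SE 0.50, adjusted p = 2.0781e-05). Esam was at 1.17 to 2.89 (median 1.76) against -6.49 to -2.88 (median -6.20), a difference of -7.59 (SE 0.59, adjusted p = 5.8115e-05). For both genes only the RAEB GMP array was well above background, so the other 5 GMP values are signals at background, and the groups lay far apart.

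Procr remained well above background in both populations. It was at 1.79 to 3.83 in LSK cells (median 2.44) and at -1.96 to -0.63 in GMPs (median -1.18), and fell by 3.79 (SE 0.30, adjusted p = 5.9889e-05), or 13.9-fold, without overlap.

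Slamf1 and Tek lay close to background even in LSK cells. Slamf1 was at -3.82 to -1.15 (median -2.84) against -6.20 to -5.68 in GMPs (median -6.06), a fall of at least 2.62-fold with a fitted difference of -3.37 (SE 0.41, adjusted p = 0.0005). Tek was at -3.70 to -2.53 (median -2.83) against -6.40 to -5.34 (median -6.10), a fall of at least 1.99-fold with a fitted difference of -3.003 (SE 0.27, adjusted p = 0.0001). Neither gene's groups overlapped, and both lay at background on every GMP array.

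All 6 GMP arrays lay below all 6 LSK arrays for 9 of the 10 genes, Mecom being the exception, and for 11% of all genes tested. The count was 10, Mecom included, with the mean of both Mecom probes (10.9% of all genes), and 7 with normexp background correction (8.87%). With normexp background correction, which compresses dim signals, 7 of the 10 were called: Mecom (-0.74, adjusted p = 0.075), Slamf1 (-0.59, adjusted p = 0.066) and Tek (-0.38, adjusted p = 0.053) were not, and the differences of Robo4, Esam, Mycn and Gata3 shrank to -4.62, -3.99, -4.06 and -2.001. In bulk RNA, fewer cells of a type and less RNA per cell cannot be told apart, which holds for every level given here.

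**Figure D2:**
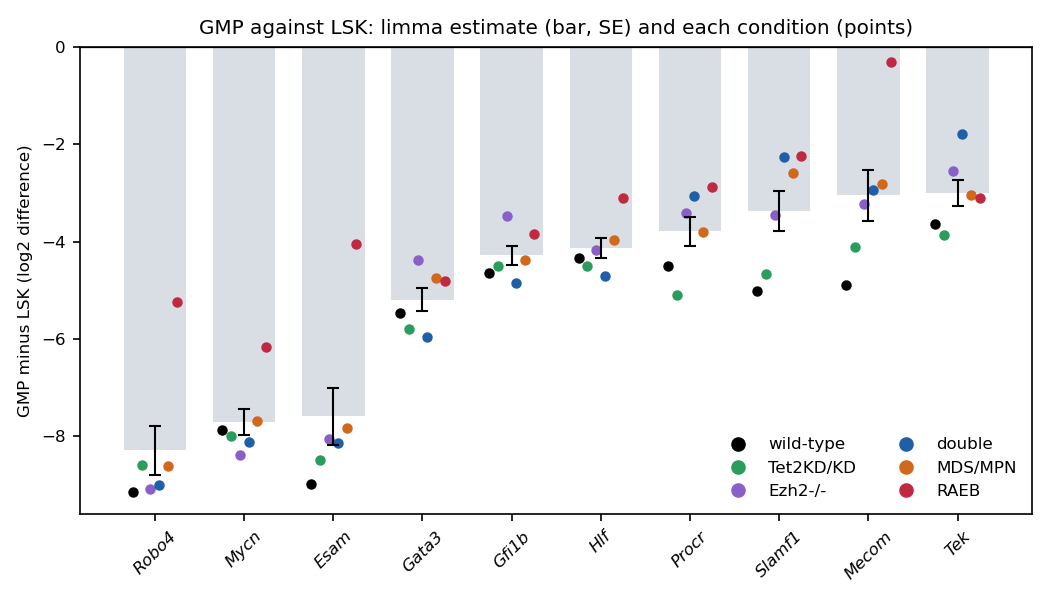
Difference between the GMP and the LSK array of the same condition for each gene (coloured points, log2), with the limma estimate over the 6 conditions as a bar from 0 and its SE as the error bar. Estimates run from -8.29 (Robo4) to -3.003 (Tek), but only Procr, Hlf and Gfi1b were above background on all GMP arrays, so the other bars do not rank the genes. The RAEB point is nearest to 0 for Robo4 (-5.25), Mycn (-6.18), Esam (-4.05), Hlf (-3.11), Procr (-2.88), Slamf1 (-2.25) and Mecom (-0.30).

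Other genes linked to stem cells moved the same way in most cases. The wider list held 56 symbols, 52 of them tested, of which 40 were called lower and 2 higher in GMPs, with a median difference of -1.76. By the smallest p-values these were Mn1, a transcriptional cofactor (at least 29.1-fold lower), Meis1, a partner of Hox proteins (-3.33, SE 0.11, adjusted p = 4.6888e-06), the homeobox gene Nkx2-3 (-5.89, SE 0.23, adjusted p = 5.0411e-06, well above background on 1 GMP array) and the scaffold gene Shank3 (at least 6.39-fold lower). The list was drawn up with earlier results of these data known and is no independent evidence of direction.

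Within LSK cells, the 10 genes fell into steady and variable ones. Mycn spanned 0.17 log2 units over the 6 LSK arrays and Robo4 0.28, where the median gene that was well above background on all 6 spanned 0.66 (12064 genes). Only 0.39% of those genes spanned less than Mycn and 3.8% less than Robo4. Mecom spanned 4.07, more than 99.7% of genes, followed by Slamf1 (2.67), Procr (2.03), Esam (1.71), Gata3 (1.64), Hlf (1.35), Tek (1.17) and Gfi1b (0.92). The steadiness of Mycn and Robo4 depended on the scaling, since with median scaling both spanned 0.65, and 20.2% and 20.4% of genes spanned less than that.

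**Figure D3:**
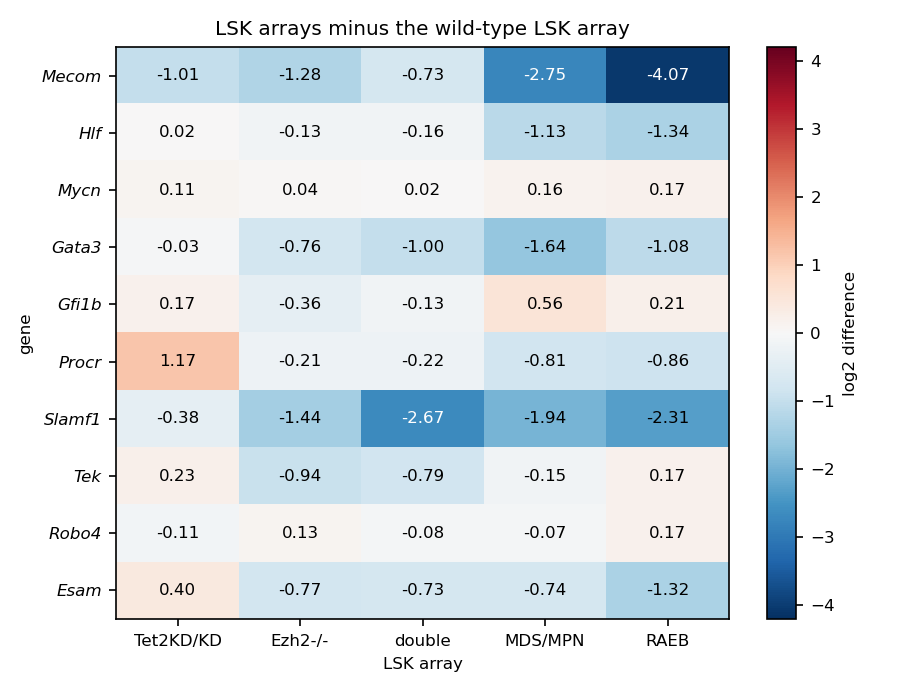
Log2 difference of each mutant or diseased LSK array from the wild-type LSK array for the 10 genes, coloured from blue (lower) to red (higher); each cell is a difference of 2 arrays and has no error. Mecom is lowest on the RAEB array (-4.07) and Slamf1 on the double mutant array (-2.67), Procr stands 1.17 higher on the Tet2KD/KD array, and the Mycn and Robo4 rows run only from -0.11 to 0.17.

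The Tet2KD/KD LSK array asks what reduced Tet2 does alone. On it 1 gene of the 10 was at least 2-fold higher than on the wild-type array and 1 at least 2-fold lower. Of all genes, 2.38% were higher by that much and 3.84% lower. Procr was at 3.83 against 2.66, and Mecom at -1.06 against -0.05. The other 8 genes lay within 0.40 of the wild-type array. The median difference of the 10 was 0.06 and that of all genes 0.18. With 1 array on each side there is no test of these differences.

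Across both populations, the Tet2 comparison (4 arrays against 4, no disease) called 0 of the 10 genes and 0 of all genes (0%), by limma with Benjamini-Hochberg adjustment. At an unadjusted p under 0.05 it held 0 of the 10 and 788 of all genes (5.75%). The difference of Procr was 0.52 (SE 0.36, adjusted p = 0.818) and that of Gata3 -0.62 (SE 0.30, adjusted p = 0.818). The test of whether the Tet2 difference itself differed between GMPs and LSK cells also called 0 of the 10 genes and 0 of all (0%), with 0 of the 10 and 315 of all genes (2.3%) at an unadjusted p under 0.05.

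With Ezh2 loss, most of the 10 genes had lower values on the LSK arrays. Both Ezh2-/- LSK arrays without disease lay below both LSK arrays with Ezh2 for 7 of the 10 genes (Procr, Slamf1, Esam, Tek, Hlf, Gata3 and Gfi1b) and above them for none, where 13.9% of all genes lay below. Slamf1 was at -1.15 in wild-type and -1.53 in Tet2KD/KD cells, and at -2.59 in Ezh2-/- and -3.82 in double mutant cells. Tek was at -2.76 and -2.53 against -3.70 and -3.55 in the same order. Both genes were low on the 2 arrays without Ezh2, with no overlap.

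Esam, an adhesion protein of stem cells and vessels, was at 2.49 and 2.89 with Ezh2 and at 1.72 and 1.76 without it. Gata3 was at 0.91 and 0.88 against 0.15 and -0.08. Procr was at 2.66 and 3.83 against 2.45 and 2.44. The Procr gap is narrow beside the wild-type array and rests on the Tet2KD/KD array.

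Mycn, Robo4 and Mecom overlapped between the arrays with and without Ezh2. Mycn was at 2.23 and 2.34 against 2.27 and 2.25, and Robo4 at 3.11 and 3.00 against 3.24 and 3.03. Mecom was at -0.05 and -1.06 against -1.33 and -0.78. The mean differences within LSK cells were -1.86 for Slamf1, -0.98 for Tek, -0.95 for Esam, -0.86 for Gata3 and -0.80 for Procr. They were smaller for Mecom (-0.50), Gfi1b (-0.34), Hlf (-0.15), Mycn (-0.03) and Robo4 (0.08). With normexp background correction the count stayed at 7 (17.6% of all genes), but the differences of Slamf1 and Tek shrank to -0.86 and -0.40. The count of 7 was 6 with quantile normalization or median scaling, where Hlf was not among them, and 8 with the mean of all probes (14.5% of all genes), which added Mecom. Mecom's dimmer probe was at -1.89 and -2.63 with Ezh2 and at -2.71 and -3.34 without it.

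Markers of other cell types moved on the same 4 LSK arrays. Of 9 megakaryocyte and platelet markers none was called with Ezh2 loss over both populations (8 arrays without disease), with a median difference of -0.55. On the LSK arrays their summed relative signal was 42.4 and 46.8 with Ezh2 and 33.2 and 28.6 without it. It was lower on both arrays without Ezh2, as most of the stem cell genes were. Of 11 markers of multipotent and lymphoid-primed progenitors none was called over both populations either, with a median difference of 0.35. On the LSK arrays the sum of these 11 was 501 and 535 with Ezh2 and 881 and 728 without it. Among these, Dntt (terminal transferase) was at 7.43 and 7.32 against 8.83 and 8.36, the interleukin-7 receptor gene Il7r at -2.82 and -2.71 against -0.88 and -1.02, and the chemokine receptor gene Ccr9 at -2.92 and -2.79 against 0.51 and -0.56. These 3 were higher on both arrays without Ezh2, with no overlap. Bright probes such as that of Dntt weigh most in a sum, while a mean level weighs the genes of a list alike. Mean levels were 1.02 and 1.23 with Ezh2 and 0.28 and 0.07 without it for the megakaryocyte and platelet list. For the multipotent and lymphoid-primed list they were 2.06 and 2.14 against 3.22 and 2.97. The part of either marker list in the values of the stem cell genes was not tested.

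Tested over both populations, the Ezh2 comparison (4 arrays against 4, no disease) called 0 of the 10 genes and 0.19% of all genes. At an unadjusted p under 0.05, it held 1 of the 10, Esam, and 1204 of all genes (8.78%). The difference of Esam was -0.63 (SE 0.21, adjusted p = 0.445), that of Slamf1 -0.87 (SE 0.44, adjusted p = 0.674) and that of Gata3 -0.63 (SE 0.30, adjusted p = 0.643). The median of the 10 was -0.17 and that of all genes -0.0045. Of the wider stem cell list 1 of 52 was called, Bmi1, a Polycomb gene, which was higher by 1.40 (SE 0.12, adjusted p = 0.020).

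The Ezh2 difference was then compared between populations. The interaction called 0 of the 10 genes and 0 of all genes (0%), by limma, with 3 of the 10 and 749 of all genes (5.46%) at an unadjusted p under 0.05. Slamf1 differed by 1.99 (SE 0.39, adjusted p = 0.295). Its difference within LSK cells was -1.86, and it was at background on all 4 GMP arrays. Tek, also at background in GMPs, differed by 1.58 (SE 0.40, adjusted p = 0.449), and Procr by 1.55 (SE 0.45, adjusted p = 0.578). With median scaling Slamf1 was called (1.90, adjusted p = 0.043).

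Against the wild-type LSK array, the Ezh2-/- LSK array had 2 of the 10 genes at least 2-fold lower (Slamf1 and Mecom, by 1.44 and 1.28) and 2.6% of all genes. The double mutant LSK array had 1, Slamf1, at -2.67, and 2.12% of all genes, with Gata3 just short of it at -0.999. No gene of the 10 was 2-fold higher on either array, where 3.26% and 2.45% of all genes were. The medians of the 10 were -0.56 and -0.48, against 0.12 and 0.02 for all genes.

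Disease in the double mutant was set against the 4 LSK arrays without disease, and asks whether stem cell genes change as MDS/MPN or RAEB develops. Mecom and Hlf, 2 of the transcription factors in the list, were lower. Limma called 2 of the 10 genes lower and none higher, where 3.73% of all genes were called lower and 3.41% higher. The other 8 genes were not called.

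Hlf was at 3.95, 3.97, 3.82 and 3.80 on the wild-type, Tet2KD/KD, Ezh2-/- and double mutant LSK arrays, and at 2.82 in MDS/MPN and 2.62 in RAEB. The 4 arrays without disease lay within 0.2 of one another, and both diseased arrays lay below them. Hlf fell by 1.17 on the log2 scale (SE 0.14, adjusted p = 0.016), or 2.24-fold. Before scaling, its processed signal was 3366 to 3896 without disease and 2612 and 2390 with it. The 75th percentile was 215 to 275 on the LSK arrays without disease and 369 and 389 on the diseased ones. The part of slide or scaling in this fall was not tested.

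Mecom was at -0.05, -1.06, -1.33 and -0.78 without disease, and at -2.80 in MDS/MPN and -4.12 in RAEB. Both diseased arrays lay below the other 4, and the RAEB value was near the dimmest signals that this array called well above background. Mecom fell by 2.65 (SE 0.46, adjusted p = 0.030), or 6.29-fold. The unscaled signal was 103 to 226 without disease, 53.0 in MDS/MPN and 22.4 in RAEB.

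A second, dimmer probe for Mecom was at -1.89, -2.63, -2.71 and -3.34 without disease, and at -3.73 and -4.11 with it. Its diseased arrays were again the lowest, with a smaller difference of -1.28. With the mean of both probes the gene was called at -1.96 (adjusted p = 0.038). The other 9 genes had 1 probe each.

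Both calls rest on having 2 diseased arrays. Without the MDS/MPN LSK array the adjusted p was 0.065 for Mecom and 0.082 for Hlf, and without the RAEB LSK array it was 0.119 and 0.0805. Mecom was also not called without the Tet2KD/KD LSK array (0.051) or the double mutant LSK array (0.070). Against the double mutant LSK array alone, the only one of the same genotype, Mecom differed by -2.67 (adjusted p = 0.430) and Hlf by -1.08 (adjusted p = 0.461).

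**Figure D4:**
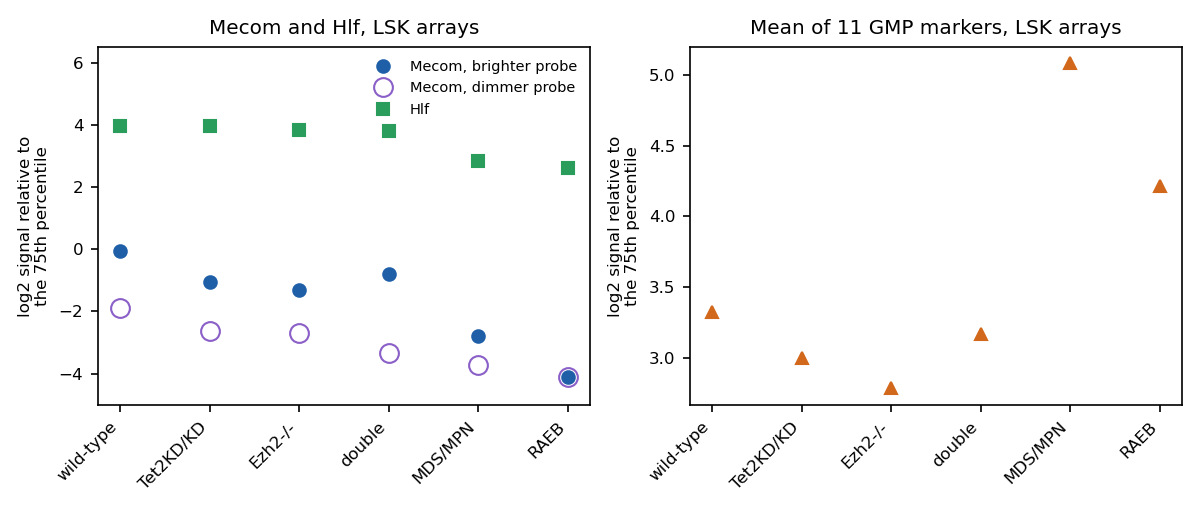
Left, levels of both Mecom probes and of Hlf on the 6 LSK arrays (log2 signal relative to the 75th percentile); right, the mean level of 11 GMP markers on the same arrays, each point being 1 array. Both genes are lowest on the MDS/MPN and RAEB arrays (Hlf 2.82 and 2.62), where the GMP marker mean is highest (5.08 and 4.22, against at most 3.33 without disease).

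The GMP markers moved with these results. Of 11 GMP markers, all well above background on the LSK arrays, 7 were called higher in diseased LSK cells, where 3.41% of all genes were. Their summed relative signal was 504 to 728 without disease and 1173 to 1589 with it. Csf3r went the other way, at 7.00 in MDS/MPN and 6.88 in RAEB against 7.24 to 7.60. Of the 4 LSK markers none was called, and their sum was 288 to 366 without disease and 331 to 381 with it. Other lists moved as well. The sum of 9 neutrophil markers was 344 in MDS/MPN and 15.4 in RAEB, against 10.8 to 91.6 without disease, and none of the 8 tested was called. Of 7 mast cell and basophil markers, 2 were called higher. The part of any of these markers in the falls of Mecom and Hlf was not tested.

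The remaining genes had values of both signs in disease. Procr was at 1.84 in MDS/MPN and 1.79 in RAEB, below its lowest other LSK value of 2.44, and differed by -1.02 (SE 0.40, adjusted p = 0.145); it was called only when the Tet2KD/KD LSK array was left out (-0.69, adjusted p = 0.049). Gata3 was at -0.72 and -0.17, below -0.08, and differed by -0.91 (SE 0.34, adjusted p = 0.133). Esam, at 1.75 and 1.17 against 1.72 to 2.89, overlapped, and so did Slamf1, at -3.09 and -3.46 against -3.82 to -1.15.

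Slamf1 shows how much the comparator matters. It differed by -1.001 (SE 0.71, adjusted p = 0.368) from the 4 arrays without disease, and by 0.54 (adjusted p = 0.550) from the double mutant LSK array alone, which held its lowest value. Esam differed by -0.75 (SE 0.38, adjusted p = 0.226) from the 4 arrays.

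Gfi1b was the highest in disease, at 3.59 in MDS/MPN and 3.24 in RAEB against 2.67 to 3.20, and differed by 0.46 (SE 0.19, adjusted p = 0.164). Mycn was at 2.39 and 2.40 against 2.23 to 2.34 and differed by 0.12 (SE 0.12, adjusted p = 0.514). Tek, at -2.90 and -2.59, differed by 0.39 (SE 0.36, adjusted p = 0.497), and Robo4, at 3.04 and 3.28, by 0.07 (SE 0.14, adjusted p = 0.785); both overlapped the other arrays.

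In all, both diseased LSK arrays lay below the 4 others for 4 of the 10 genes (Mecom, Procr, Hlf and Gata3; 18.3% of all genes) and above them for 2 (Gfi1b and Mycn; 27% of all genes). With quantile normalization no gene of the 10 lay above. The median difference of the 10 was -0.83 and that of all genes 0.09. With normexp background correction 4 of the 10 were called, Gata3 lower and Gfi1b higher in addition to Mecom and Hlf. That setting called 4327 of the 13712 genes tested, 2088 higher and 2239 lower, where the main fit called 979.

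Against the wild-type LSK array alone, 4 of the 10 genes were at least 2-fold lower in MDS/MPN (Mecom, Slamf1, Gata3 and Hlf, by 2.75, 1.94, 1.64 and 1.13), where 6.26% of all genes were. In RAEB it was 5 of 10, where 7.1% of all genes were: Mecom, Slamf1, Hlf, Esam and Gata3, by 4.07, 2.31, 1.34, 1.32 and 1.08. No gene of the 10 was 2-fold higher in either, where 5.67% and 5.83% of all genes were. The medians of the 10 were -0.77 and -0.97, against 0.14 and 0.19 for all genes.

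Of the 52 other stem cell genes tested, 7 were called lower and 1 higher in diseased LSK cells, with a median of -0.28. They included Nkx2-3 (-1.51, SE 0.19, adjusted p = 0.019), Hoxa9 (-0.77, SE 0.14, adjusted p = 0.033) and Prdm16, a relative of Mecom (-1.13, SE 0.21, adjusted p = 0.034).

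Whether the disease difference was itself different in GMPs was tested by an interaction over all 12 arrays. It called 0 of the 10 genes and 12.9% of all genes, with 4 of the 10 and 4112 of all genes (30%) at an unadjusted p under 0.05. Those 4 were Hlf (0.89, SE 0.29, adjusted p = 0.067), Mecom, Esam and Mycn. Of these, only Hlf was measured above background on the GMP arrays throughout; the probes of Mecom and Mycn were at background on all 6 and that of Esam on 5, so for them the GMP side is a background signal and the size of the interaction is not given. Leaving out the MDS/MPN GMP array leaves 1 diseased GMP array, and the interaction of Hlf was then 1.21. With normexp background correction 4 of the 10 were called, and 4100 of the 13712 genes tested, where the main fit called 1764. The 4 were Hlf and, with probes at background on all GMP arrays, Mecom, Slamf1 and Gata3.

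Among the GMP arrays, the one from RAEB mice carried signal for Robo4 and Esam. Robo4 was at -1.97 there and between -6.04 and -5.58 on the other 5 GMP arrays, which are at background. Esam was at -2.88 there and between -6.49 and -5.60 on the others. Both values lay above every other GMP array and far below every LSK array.

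In unscaled signal Robo4 was at 43.2 on that array and at most 4.79 on the other GMP arrays, and Esam at 22.9 and at most 4.78. Mycn was also highest there, at -3.77 against at most -5.30, but was not well above background. The other 7 genes lay within 0.20 of the highest of the other 5 arrays, or below it.

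A level at least 1 log2 unit above the other 5 GMP arrays, and well above background, was found for 2 of the 10 genes and 2.13% of all genes tested, and for 3.52% of the 2585 genes called lower in GMPs. With normexp background correction it was found for 0 of the 10 and 0.853% of all genes, the gap to the next GMP array being 0.75 for Robo4 and 0.65 for Esam. Other markers on that array were checked in the same way. Of 9 endothelial markers tested none was higher there, and Cdh5, Sox17, Sox18 and Ptprb were not above background on any array. Flt3, a receptor of multipotent and lymphoid-primed progenitors, was at 4.58 there and at most 2.24 on the other GMP arrays, and 4 of 8 neutrophil markers (Ngp, S100a8, S100a9 and Retnlg) were higher there. So were 1 of 9 megakaryocyte and platelet markers, Pf4 (platelet factor 4), at 4.70 against at most 3.00, and 1 of 7 mast cell and basophil markers, Tpsb2, at 0.52 against at most -0.56. The summed relative signal of the 9 megakaryocyte and platelet markers was 37.9 there, 18.0 on the MDS/MPN GMP array and 3.78 to 6.10 on the other 4. Bright probes such as that of Pf4 weigh most in such a sum. The mean level of the 9, which weighs them alike, was 0.40, 0.05 and -2.51 to -2.13 in the same order. Of the wider stem cell list 2 of 52 were higher, Vwf (von Willebrand factor, made by vessel lining and megakaryocytes), at 0.89 against at most -0.32, and the early response gene Egr1, at 5.18 against at most 4.13. Their part in the Robo4 and Esam values was not tested.

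Robo4 and Esam lie near each other on 1 chromosome, in the order Hepacam, Robo4, Robo3, Msantd2, Esam and Vsig2 in RefSeq's gene table. Robo3, of the same receptor family as Robo4, was at -2.03 to -1.32 in LSK cells and at -4.54 to -3.43 in GMPs, and fell by 2.57 (SE 0.22, adjusted p = 9.0718e-05). Its GMP value was highest on the RAEB array, at -3.43, the only GMP array where it was well above background. Msantd2, between Robo3 and Esam, was at -2.46 to -1.64 in LSK cells and at -2.29 to -1.71 in GMPs, with overlap and a difference of 0.06 (SE 0.15, adjusted p = 0.759). Its highest GMP value, -1.71, was also on the RAEB array.

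Vsig2, on the other side of Esam, was at -3.44 to 0.83 in LSK cells and at background in GMPs, with a difference of -4.18 (SE 0.63, adjusted p = 0.0014). Its lowest LSK values were the diseased ones, at -3.44 in MDS/MPN and -3.13 in RAEB. Hepacam was not well above background on any array, and its highest GMP signal, -4.51, was that of the RAEB array. Robo4 and Esam were used to pick this stretch, so their own falls add nothing to what it shows. Of the other genes tested there, Robo3 and Vsig2 were called lower in GMPs and Msantd2 was not. Among all genes tested, 18.9% were called lower.

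**Figure D5:**
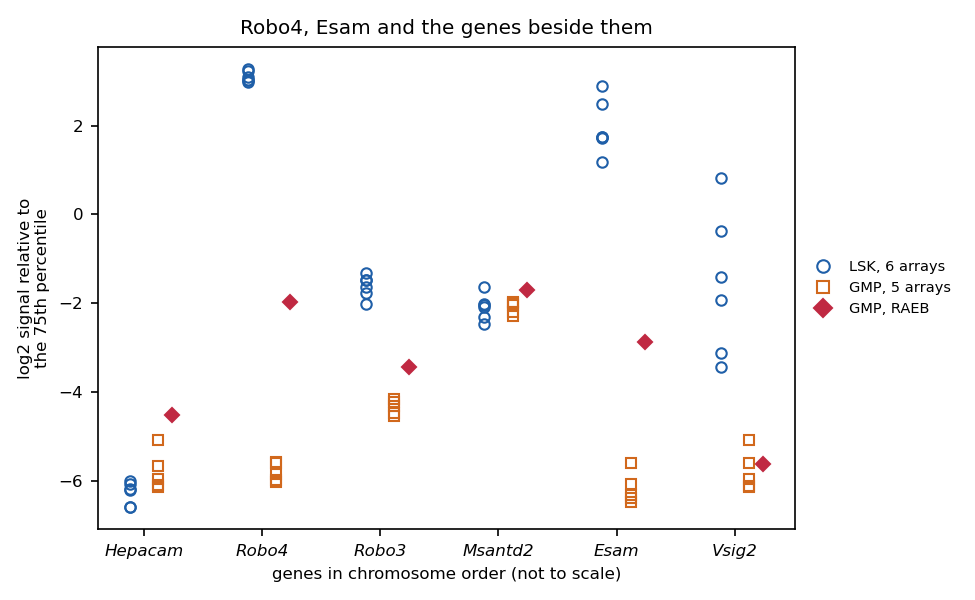
Levels of Robo4, Esam and the genes beside them in chromosome order (spacing not to scale), on the 6 LSK arrays (circles), 5 GMP arrays (squares) and the RAEB GMP array (diamonds), as log2 signal relative to the 75th percentile. Robo4, Robo3, Esam and Vsig2 separate the populations and Msantd2 does not. The RAEB GMP array lies above the other GMP arrays for Robo4 (-1.97), Robo3 (-3.43), Esam (-2.88), Msantd2 (-1.71) and, at background, Hepacam (-4.51). Only for Vsig2 is it not the highest.

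The genes with patterns most like those of the list were sought over the 12 arrays, each gene centred on its own mean and likeness measured as the mean absolute difference in log2 units. For Hlf it was Emcn (endomucin), at 0.31, for Slamf1 the homeobox gene Hoxb5, at 0.36, and for Gfi1b Lag3, at 0.27. For Tek it was Castor1 (0.27), for Gata3 Hspa12b (0.33) and for Mecom Gcnt2 (0.47). Robo4 and Esam had no close match outside the list, with Dntt at 0.89 and Gimap8 at 0.78, and Mycn had Tbxa2r at 0.61. Emcn, like Hlf, had its lowest LSK values in disease, at -2.73 in MDS/MPN and -3.01 in RAEB, against -2.003 to -0.98 without disease. These distances describe 12 arrays that share 2 populations, and most of each comes from the gap between LSK cells and GMPs.

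Among the 10 genes themselves, Procr and Hlf were the closest pair over the 12 arrays, at 0.39. Over the 6 LSK arrays alone the closest pairs were Robo4 and Mycn, at 0.11, and Mycn and Gfi1b, at 0.18, while Mecom and Gfi1b were the farthest apart, at 1.39.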

How the data were processed

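Probe intensity came from Agilent Feature Extraction 10.7.1.1, per the file headers: the deposited processed signal of each spot is background-corrected by that program, and the labels' protocols give 250 ng of total RNA labelled with Cy3. The authors' deposited value table held the same intensity at all 62976 spots of every array.

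Control spots and outlier-flagged spots were left out, spots of a probe averaged, and each array's 75th percentile over gene spots subtracted from the log2 processed signal. Of 55681 gene probes, 26762 took 1 symbol through RefSeq accessions (97.92% of mRNA and non-coding RNA accessions matched; GRCm38.p6, used for names, order and promoters only, since the files use mm9). The brightest probe stood for a gene, tested where 2 or more arrays read that probe as well above background. Differences were fitted with limma 3.58.1 (R 4.3.3) on 13712 genes, Benjamini-Hochberg adjusted, threshold 0.05. A call between 2 single arrays needed 2-fold. The fits were tested on simulated data.

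The 10 genes and all lists were chosen with earlier results of these data known. The named genes are the 10, Tet2 and Ezh2, the wider list's smallest p-values (GMPs against LSK) or up to 4 called genes, each gene's nearest pattern, and the genes beside Robo4 and Esam. Alternatives covered scaling, background correction, dim-probe filters, probe choice, moderation, comparator and leaving out each array. The mean signal planned for the normexp correction (offset 50) was not used here; the median signal took its place. The sources used here do not say whether any arrays came from the same mice. Some named genes' results are not reported here.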

Additional observations from a re-analysis of the deposited data

Results flagged for a closer look

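The RAEB GMP array stood apart from the other 5 GMP arrays for Robo4, at -1.97 against -6.04 to -5.58, and for Esam, at -2.88 against -6.49 to -5.60. The gap to the nearest array made up 0.888 and 0.753 of the whole range, above Dixon's 95% critical value of 0.625 for 6 samples. With normexp background correction the gap itself shrank from 3.62 to 0.75 for Robo4 and from 2.72 to 0.65 for Esam. Of the 10 genes' groups, 15 were examined in this way, those with a spot well above background, and chance marks about 1 in 20 groups. That rate does not hold for the GMP groups of Robo4 and Esam. Both were examined only because the RAEB array itself was above background, and their other 5 values lie close together at background. For them the ratio describes the gap and is no test of it.

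Procr moved in opposite directions with Ezh2 loss in the 2 populations. It was lower in both LSK pairs, by 0.21 and 1.39, and higher in both GMP pairs, at 0.87 and 0.64, with a difference between the populations of 1.55 that limma did not call (adjusted p = 0.578). That difference lay between 0.96 and 2.14 over its 16 alternatives.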

How the results depend on the processing

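For GMPs against LSK cells all 10 differences kept their direction under the 22 alternatives, 10 of 10 were called in all but normexp (7), and leaving out 1 array gave 4486 to 6770 genes and 10 of the 10. Other scalings moved the median of all genes from 0.16 to 0.01 (quantile) and 0.26 (median scaling), and the share of calls that were higher from 57.7% to 46.3% with quantile normalization. In diseased LSK cells that share went from 47.8% to 82.8% with median scaling, with a median of all genes of 0.37 in place of 0.09.

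Genes called for Ezh2 loss, 26, became 74 with normexp, 17 with quantile normalization, 67 with median scaling, 12 without a filter on dim probes, 78 with trend and robust moderation and 7 with a term for the sex-linked pattern, and 0 to 10 with 1 array left out. Leaving out 1 array gave 0 to 1 genes for Tet2 knockdown, 0 to 196 for the Ezh2 interaction and 0 to 78 for the Tet2 interaction, all 0 with every array; median scaling gave 189 and 30 for the interactions and 1 of the 10 genes for Ezh2, while normexp gave 9 and moderation 18. None of the 10 was called for Ezh2 loss or Tet2 knockdown in any alternative.

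Genes called in diseased LSK cells, 979, became 4327 with normexp, 5823 unfiltered, 1578 with moderation and 6 against the double mutant array, and 52 to 739 with 1 array left out; of the 10 genes, 4 were called with normexp, 0 against the double mutant array and 0 to 2 with 1 array left out. Slamf1 turned to 0.54 against the double mutant array. For the disease interaction, 1764 genes became 4100 with normexp, 6273 unfiltered and 384 to 3759 with 1 array left out, and of the 10 genes 4 were called with normexp, 1 with quantile normalization, 2 unfiltered and 0 to 5 with 1 array left out.

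For single LSK arrays, 2-fold counts of genes with normexp were 157 (Tet2KD/KD), 205 (Ezh2-/-), 141 (double mutant), 558 (MDS/MPN) and 653 (RAEB), and at a fold of 1.5 they were 2896, 2086, 1539, 4033 and 4499; median scaling gave 3508 in RAEB. Of the 10 genes, Tet2KD/KD gave 1 with normexp, median scaling or the mean of probes; Ezh2-/- gave 0 with normexp and 5 at a fold of 1.5; the double mutant gave 2 with quantile normalization or the mean of probes and 5 at a fold of 1.5; RAEB gave 2 with median scaling. The causes were not tested. The counts of separated arrays, and of genes set apart on the RAEB GMP array (2 of the 10, and 0 with normexp), were repeated under other scalings, an alternative chosen after seeing the data. GMPs and LSK cells were paired by condition in the fit; without that term 6336 genes and 10 of the 10 were called. Pairing by replicate number was not possible, since the labels carry none. Precision is limited by the number of arrays and, for Slamf1, Tek and Mecom, by signal close to background.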
